A study of Arabidopsis thaliana with 10 samples.

Results

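The regions described here are 2328 sites on Arabidopsis thaliana genomic DNA at which a peak was called with the SEP3-AG complex and with neither of the other complexes assayed. They were chosen from the 8888 peak summits of SEP3-AG replicate 1, a summit being the position of highest coverage within a peak. A summit was kept when both other SEP3-AG libraries had a summit within 200 bp, which left 6358 reproduced sites, and when no SEP3Δtet-AG and no SEP3 library had one within 200 bp. The sites called only with SEP3-AG were thus 26.2% of the replicate 1 summits and 36.6% of the reproduced sites. The other 4030 reproduced sites, which had a summit in at least 1 of the 6 lists of the other complexes, are called shared sites and serve as the comparison. The calls and the heights of the peaks chose the sites, so both are given as a description only.

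The series held 9 peak lists and 1 input DNA library. All proteins were made in vitro by coupled transcription and translation and were mixed with adaptor-ligated, amplified genomic DNA of 2-week-old Col-0 seedlings. This DNA is free of chromatin, so the assay reports binding to bare sequence and not occupancy in a plant. SEP3-AG (3 libraries) combined FLAG-tagged SEP3 with Myc-tagged AG and was purified in 2 steps, first on FLAG and then on Myc (seq-DAP-seq). SEP3Δtet-AG (2 libraries) differed only in its SEP3 subunit, a splice variant altered in the region through which tetramers form. SEP3 (4 libraries) held FLAG-tagged SEP3 alone and went through 1 purification (DAP-seq). The input library, which went through no protein, was the control of all 9 lists. Sites of 1 genome are not replicates of a complex and the libraries chose the sites, so no test across samples was open. Differences between members and shared sites are given with a 95% interval that covers counting error over sites only.

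SEP3 and AG are MADS transcription factors of the floral organ identity network. AG specifies stamens and carpels and ends the activity of the floral meristem, and SEPALLATA proteins are the partners with which the other organ identity proteins form complexes. MADS proteins bind DNA as dimers at the CArG box, which is written here as CC, then 6 bases that are each A or T, then GG. Plant MIKC-type MADS dimers can join through their keratin-like domain into tetramers, and a tetramer can hold a pair of CArG boxes on the same DNA molecule.

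Pairs of matches to a motif matrix at the preferred distances given below lay in 360 of 2328 members and 495 of 4030 shared sites. To give the sequence behind these counts, 7 pairs from the 20 strongest members are shown, with 1 each at AG and AP1. Such pairs were more frequent in the stronger members. Each run is the plus strand of the TAIR10.1 RefSeq assembly and spans both matches to a 16 bp motif matrix. The capitals mark the middle 10 bases of each match, where the CArG box lies, and the distance is taken from the start of the first match to the start of the second.
STT3A, chr5:6655239-6655301, distance 47 bp: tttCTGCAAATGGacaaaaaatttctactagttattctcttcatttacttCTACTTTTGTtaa
RPS6, chr5:18843256-18843318, distance 47 bp: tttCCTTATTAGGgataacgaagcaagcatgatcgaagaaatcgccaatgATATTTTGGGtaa
AAE3, chr3:18161973-18162035, distance 47 bp: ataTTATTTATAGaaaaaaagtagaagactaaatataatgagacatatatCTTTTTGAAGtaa
PEN3, chr5:14226436-14226497, distance 46 bp: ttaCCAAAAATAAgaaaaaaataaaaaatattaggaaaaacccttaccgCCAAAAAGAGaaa
scpl48, chr3:16464802-16464863, distance 46 bp: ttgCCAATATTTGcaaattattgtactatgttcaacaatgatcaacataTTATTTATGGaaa
AT1G57720, chr1:21374472-21374523, distance 36 bp: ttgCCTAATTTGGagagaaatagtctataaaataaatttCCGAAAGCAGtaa
AT3G17090, chr3:5827968-5828040, distance 57 bp: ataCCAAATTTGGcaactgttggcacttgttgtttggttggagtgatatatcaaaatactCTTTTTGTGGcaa
AG, chr4:10382680-10382742, distance 47 bp: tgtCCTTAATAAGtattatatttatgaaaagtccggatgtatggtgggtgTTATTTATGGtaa
AP1, chr1:25985769-25985830, distance 46 bp: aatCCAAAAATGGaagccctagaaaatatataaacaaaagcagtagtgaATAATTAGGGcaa

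These runs show a range of box quality at distances from 36 to 57 bp. In RPS6, AT1G57720, AT3G17090 and AP1 the first match is a CArG box without mismatch, and the second departs from the box at 2 to 4 of its 10 positions. In STT3A and AAE3 each of the 2 matches departs from it at 3 positions, and in PEN3 at 2. The pair upstream of AG has 1 and 2 mismatches.

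The members, reproduced by the rule that chose them, were of moderate height. Fold enrichment, the ratio of a library to the input at the summit as the authors' peak caller gave it, had a median of 5.01 in replicate 1 (lowest 2.19, highest 14.7). The median was 4.07 in replicate 2 (2.05 to 14.6) and 5.89 in replicate 3 (2.14 to 17.2). Shared sites had medians of 6.70, 5.46 and 7.50 in the same order, so the members were lower in each of the 3 libraries, with wide overlap. The best-placed member ranked 132nd in the list of replicate 1, 80th in that of replicate 2 and 106th in that of replicate 3. Of the members, 3.61%, 2.45% and 4.08% stood in the top 10% of these lists, against 20%, 15.1% and 21.2% of shared sites. Across the 2328 members, log2 fold enrichment had a Pearson correlation of 0.92 between replicates 1 and 2, 0.87 between 1 and 3 and 0.88 between 2 and 3. Shared sites had 0.96, 0.94 and 0.94 in the same order. These values are a description over sites that share these libraries and their input.

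**Figure D1:**
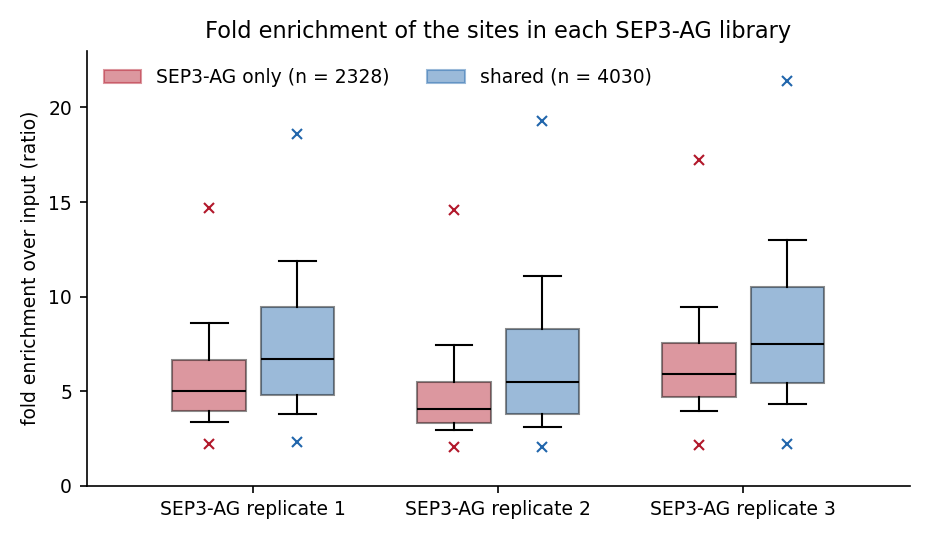
Fold enrichment over input (ratio, y axis) of the 2328 sites called only with SEP3-AG and of the 4030 shared sites in each of the 3 SEP3-AG libraries; boxes span the quartiles with the median, whiskers the 10th and 90th percentiles, and crosses the lowest and highest site. Medians of the members were 5.01, 4.07 and 5.89, each below the 6.70, 5.46 and 7.50 of the shared sites.

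When the reproduced sites were ranked by fold enrichment in replicate 1 and divided into 5 height classes of equal size, members made up 52.7% of the lowest class. They made up 46.4%, 40.3% and 31.0% of the next classes and 12.5% of the highest (159 sites). Because height moved with membership, the shares of boxes, of pairs and of promoter sites were repeated within these classes. The other comparisons were not.

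Most members had no call of the other complexes within 1000 bp, but no distance from random positions was taken for comparison. The nearest SEP3Δtet-AG or SEP3 summit was a median of 4110 bp away, was over 1000 bp away for 1986 members (85.3%) and over 10000 bp away for 486 (20.9%). Only 14 members (0.601%) had one within 250 bp, just beyond the limit, and 11 lay inside a peak region of another complex. Shared sites, which the rule itself holds within 200 bp of such a summit, had the nearest at a median of 9 bp. The 200 bp limit therefore cut through few sites. The member nearest to the limit, at MAX2, had a SEP3Δtet-AG replicate 1 summit 205 bp away and fold enrichments of 7.50, 6.70 and 8.19 in the 3 SEP3-AG libraries. The nearest site on the other side, at MAKR1, had one 200 bp away and fold enrichments of 8.76, 5.99 and 6.60. For the limit between replicates, the member at ROPGAP3 had its farther SEP3-AG summit at 178 bp, and the site at EML1, at 219 bp, was left out.

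Membership rested on lists of very unequal length, from 473 summits in SEP3 replicate 1 to 8916 in SEP3 replicate 4, while SEP3-AG lists held 6643 to 9588 and SEP3Δtet-AG lists 2329 and 3331. The reads were not used here and the lists do not give the depth of a library, so a site that was not bound and a site below the calling threshold cannot be told apart. The paper reports read numbers per library. By its values each SEP3-AG library had a larger share of reads in peaks than any SEP3Δtet-AG or SEP3 library. SEP3 replicate 4, whose peak names carry another library prefix than the other 8 lists, had a summit at 3639 of the reproduced sites (57.2%), and was the sole other list at 1122 of them (17.6%). Without it 3450 sites would have been called only with SEP3-AG. The other SEP3 lists were the sole other list at 0 to 12 sites, and SEP3Δtet-AG replicates 1 and 2 at 181 and 12.

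CArG boxes were much more frequent at the members than elsewhere in the genome, but less frequent and of lower quality than at shared sites. A box without mismatch, on either strand, lay within 50 bp of the summit at 141 members (6.06%, 95% Wilson interval 5.16 to 7.10). The share was 11.4% (10.5 to 12.4) at shared sites and 0.488% in the 401-bp windows of the genome that held no summit of any list. With 1 mismatch allowed, 1039 members had a box (44.6%, 42.6 to 46.7), against 58.5% of shared sites (57 to 60) and 10.9% of genome windows. The differences were -5.36 percentage points (-6.72 to -3.95) and -13.9 points (-16.4 to -11.4). Windows 1000 bp to either side of the members held a box in 0.489% and 10.8% of cases, close to the genome values. Shared sites were not uniform. Those of both AG complexes with no SEP3 call had 8.01% (5.64 to 11.3) and 48.6% (43.5 to 53.8), with intervals that overlapped those of the members. Those of SEP3-AG and SEP3 with no SEP3Δtet-AG call had 7.92% and 52.6%, and the 316 sites found in all 9 lists had 20.3% and 72.2%.

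The best box within 50 bp had 0 mismatches at 6.06% of members, 1 at 38.6%, 2 at 49.3% and 3 or more at 6.06%. At shared sites the same shares were 11.4%, 47.1%, 38.0% and 3.50%. Where the best box had 1 mismatch, it fell in the A/T core at 24.1% of members (216 of 898) and at 16.9% of shared sites (321 of 1899), and otherwise in the CC or GG. The boxes without mismatch differed in part between the sets. CCAAAAAAGG was the best box at 20 of the 141 members (14.2%) and at 67 of the 460 shared sites (14.6%), whereas CCAAAAATGG was found at 10 (7.09%) and 70 (15.2%). CCATAAATGG was found at 31 shared sites (6.74%) and at 0 of the 141 members, and CCAAATTTGG at 3 members (2.13%) and 27 shared sites (5.87%), numbers too small for more than a description. The whole 401-bp window of a member held a mean of 1.02 boxes with at most 1 mismatch, that of a shared site 1.39 and a genome window 0.507.

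At 786 members (33.8%) the window held no box with at most 1 mismatch, against 20.4% of shared sites (difference 13.3 points, 11 to 15.6). The strongest member, at AT3G32150, and the member in CKL6 were among them. A more permissive description was a palindromic 16 bp matrix learned from the 600 top summits of SEP3Δtet-AG replicate 1, none of which is a member. It weighs T before and A after the box and admits T at the second position of the box in 40.5% of cases. Its match threshold was set at 1 match per 500 bp of genome. By this measure 639 of the 786 members without a box (81.3%) had a match within 50 bp, as had 88.8% of the shared sites without one (difference -7.54 points, -11 to -4.07) and 11.3% of such genome windows. Over all members the share was 81.6%, against 89.1% of shared sites and 13.8% of genome windows, and 147 members (6.31%) had neither a box nor a match. Since the matrix was learned on sites of another complex, which are among the shared sites where SEP3-AG bound them too, its lower match rate at the members is not an independent measure of their quality. The members were also richer in G and C, with a median of 32.4% over the window against 29.9% at shared sites and 36.9% in the genome, and the part of base composition in these box counts was not tested.

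Within each height class the members again had fewer boxes with at most 1 mismatch. Their share stayed between 43.1% and 48.2% across the classes, while that of shared sites went from 53.2% in the lowest to 66.8% in the highest. The difference was -8.96 points in the lowest class (-14.4 to -3.46) and -20.8 points in the highest (-28.9 to -12.6).

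The boxes of the members were fewer at the summit than beside it. In 10 bp steps, boxes with at most 1 mismatch were most frequent 20 bp to the left (180 boxes, 7.73 per 100 sites) and 20 bp to the right of the summit (183 boxes, 7.86). They were fewer at the summit itself (115 boxes, 4.94). Shared sites had no such dip, with 8.41, 11.1, 10.8, 9.68 and 8.88 boxes per 100 sites from 20 bp left to 20 bp right. The background in genome windows was 1.30.

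**Figure D2:**
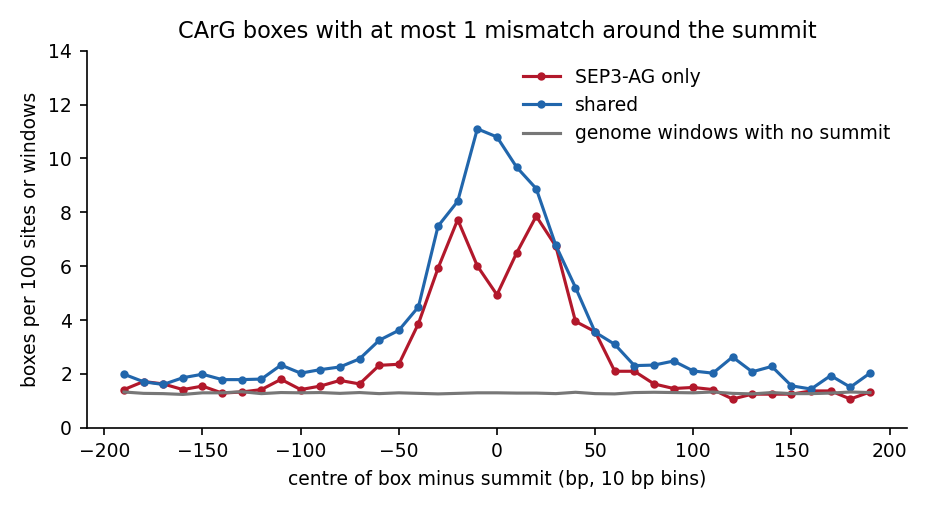
Number of CArG boxes with at most 1 mismatch per 100 sites or windows (y axis) by the distance of the box centre from the summit in bp (x axis, 10 bp bins), for members, shared sites and genome windows with no summit. Members have 2 maxima of 7.73 and 7.86 at 20 bp on either side and 4.94 at the summit, where shared sites reach 10.8.

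The spacing of boxes was examined because a tetramer can contact a pair at once. The preferred distances of 36, 37, 46, 47, 56 and 57 bp between starts were taken from the study, where they were derived from the SEP3-AG libraries used here, and the study examined them in regions specific to this complex too. Neither the presence of such pairs at SEP3-AG sites nor their division between members and shared sites is therefore independent of how the distances were found, and both are given as a description. Among windows with at least 2 boxes with at most 1 mismatch 10 to 100 bp apart, 85 of 364 members held a pair at a preferred distance (23.4%, 19.3 to 28.0). This was the case for 161 of 1011 shared sites (15.9%, 13.8 to 18.3) and 8.25% of genome windows. The difference was 7.43 points (2.72 to 12.5). At distances 5 bp shorter and 5 bp longer the members had 8.24% and 7.69%, and the shared sites 8.90% and 8.61%, differences of -0.660 and -0.913 points whose intervals contained 0. Windows with 2 boxes were less frequent among the members, by 9.45 points. Over all windows, with or without 2 boxes, a preferred pair was found in 3.65% of members and 4.0% of shared sites, so the excess concerns how boxes were spaced where there were 2 of them, and not the number of sites with such a pair.

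With matrix matches in place of boxes, 1104 members had 2 matches 10 to 100 bp apart, and 360 of them a pair at a preferred distance (32.6%, 29.9 to 35.4). The share was 20.2% in shared sites (495 of 2447, 18.7 to 21.9), 10.6% in the windows beside the members and 8.58% in genome windows. The difference of 12.4 points (9.22 to 15.6) turned to -6.49 points (-8.51 to -4.32) at distances 5 bp shorter and to -6.20 points (-8.26 to -4.00) at distances 5 bp longer. At the shorter and longer distances members had 7.61% and 8.06%, and shared sites 14.1% and 14.3%. The windows beside the members had 7.63% at both. Pairs in the members were thus gathered at the preferred distances. At the shifted distances they were rarer than in shared sites and near the share of the windows beside the members. The number of matches per window was not held equal between the sets, and its part in these differences was not tested. Taken over all windows the difference was 3.18 points (1.42 to 4.99). Among the shared sites the share differed with the complexes that had called them. It was 28.0% (25 to 31.2) at sites of SEP3-AG and SEP3, 20% (15.1 to 26) at sites of both AG complexes, 16% (14.2 to 18) at sites of all 3 complexes and 12.8% (9.04 to 17.7) at sites found in all 9 lists. The sites of SEP3-AG and SEP3 had 9.67% and 11.6% at the shorter and longer distances, so such gathering was not particular to the members. Of all 1414 sites of SEP3-AG and SEP3, 1122 had SEP3 replicate 4 as their sole other list. The part of this library was not tested.

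By single distance, 47 bp (95 windows, 8.61%) and 46 bp (93 windows, 8.42%) led among the members, against 3.96% and 4.17% of shared sites and 1.26% and 1.25% of genome windows. The next were 56 bp with 5.80% of members, 48 bp with 5.53% and 55 bp with 5.07%. At 36 bp members and shared sites were close, with 4.53% and 4.09%. The maxima of the members thus lay about 10 bp apart. The summit lay between the 2 matches of the pair in 284 of the 360 members (78.9%, 74.4 to 82.8) and in 304 of the 495 shared sites (61.4%, 57.1 to 65.6), a difference of 17.5 points (11.3 to 23.3). It was within 10 bp of the middle of the pair in 56.4% of the members and 37.6% of the shared sites.

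**Figure D3:**
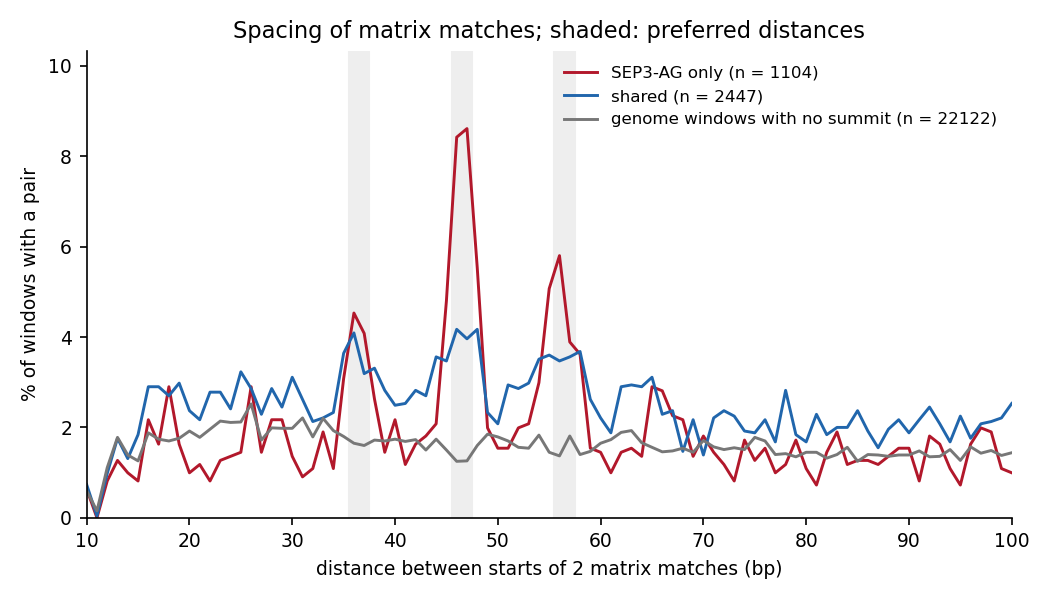
Share of windows with 2 matrix matches (%, y axis) that held a pair at each distance between match starts from 10 to 100 bp (x axis), for members, shared sites and genome windows with no summit; the preferred distances are shaded. The members reach 8.42% at 46 bp and 8.61% at 47 bp, where shared sites have 4.17% and 3.96%.

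The share of windows with a preferred pair of matches was higher in the stronger members. From the lowest to the highest height class it was 23.4%, 25.5%, 32.8%, 39.9% and 61.7% (58 of 94) in the members, and 9.39%, 13.2%, 16.1%, 20.5% and 29.5% in shared sites. The interval of the difference in matrix pairs lay above 0 in each class, from 12.3 points (5.88 to 18.9) in the class above the lowest to 32.2 points (21.6 to 41.9) in the highest. For pairs of boxes, which are fewer, the difference was 11.3 points within the classes (6.36 to 16.2). Its interval lay above 0 in the other classes but contained 0 in the middle one (3.23 points, -4.95 to 13.6).

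**Figure D4:**
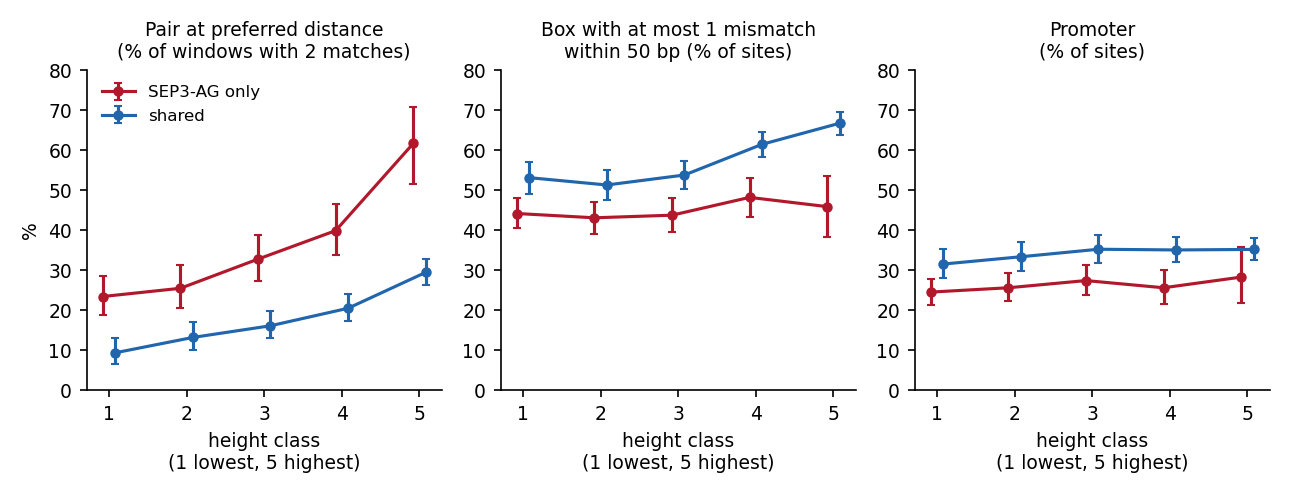
Share (%, y axes, with 95% Wilson intervals) of windows with a preferred pair of matrix matches, of sites with a box with at most 1 mismatch within 50 bp, and of sites in promoters, by height class, from the lowest (1) to the highest (5) fold enrichment in SEP3-AG replicate 1 (x axes). In the highest class members and shared sites had 61.7% and 29.5% pairs, 45.9% and 66.8% boxes and 28.3% and 35.2% promoter sites.

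Members were less often in promoters and more often inside genes than shared sites. Each summit was placed in the RefSeq annotation of TAIR10.1, with a promoter taken as the 1000 bp before a protein-coding gene's start outside any such gene. Promoters held 603 members (25.9%, 24.2 to 27.7), against 34.3% of shared sites and 14% of the genome. The difference was -8.44 points (-10.7 to -6.11), and it was -4.96 points without SEP3 replicate 4. Introns held 457 members (19.6%, 18.1 to 21.3), 3.95 points more than among shared sites (2.00 to 5.94). Coding exons held 197 (8.46%, 7.40 to 9.66), 4.74 points more (3.50 to 6.06), although coding exons make up 28.3% of the genome. Untranslated exons held 15.6% and other intergenic DNA 30.4%, and the intervals of their differences contained 0. Within the height classes the promoter share of members was between 24.6% and 28.3% and lower than that of shared sites, with an interval that contained 0 in the highest class (-6.92 points, -13.9 to 1.02).

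**Figure D5:**
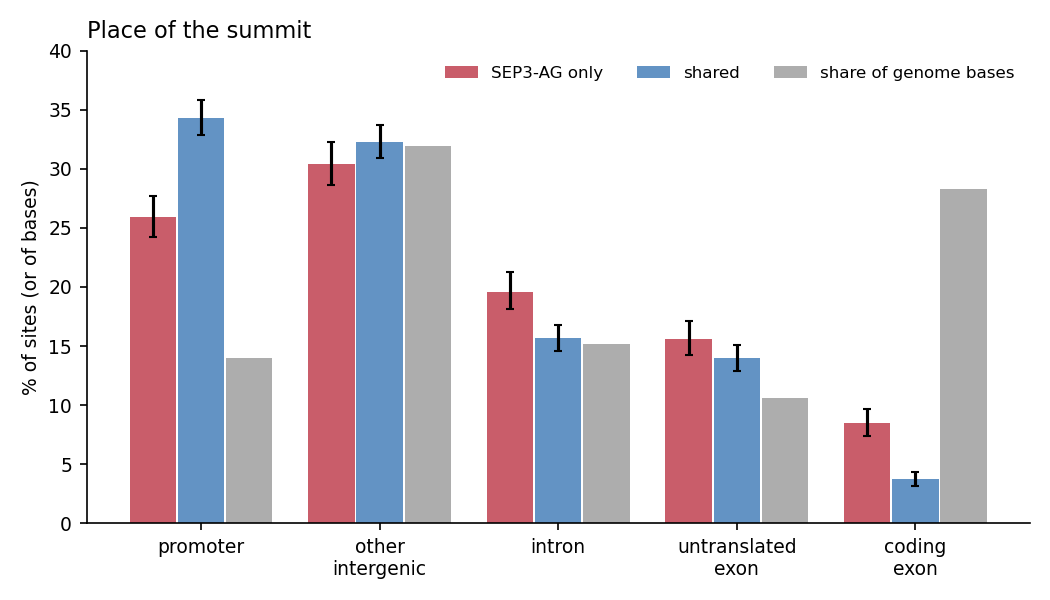
Share of summits (%, y axis, with 95% Wilson intervals) by place in the annotation for members and shared sites, beside the share of genome bases in each place. Promoters held 25.9% of members and 34.3% of shared sites, and coding exons 8.46% and 3.72%, against 28.3% of the genome.

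Sites of both AG complexes with no SEP3 call were close to the members in place, with 29.3% in promoters (24.8 to 34.2) and 19.6% in introns (15.9 to 24), and whether these sites and the members differ was not tested. The coding exon share also differed with the complexes that had called a site. It was 9.39% (6.80 to 12.8) at sites of both AG complexes with no SEP3 call, 2.48% (1.79 to 3.42) at sites of SEP3-AG and SEP3 with no SEP3Δtet-AG call and 3.59% at sites of all 3 complexes. Sites called with SEP3, which went through 1 purification, were thus the ones with few coding exons. SEP3 replicate 4 was the sole other list at 1122 of the 1414 sites of SEP3-AG and SEP3. Complex, purification and this library cannot be told apart here. Annotated pseudogenes held 53 members (2.28%, 1.74 to 2.97) and 33 shared sites (0.819%, 0.584 to 1.15). Upstream of the nearest gene start lay 53.9% of the members and 60.1% of shared sites, with 21.0% and 25.2% in the last 500 bp before it.

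The members were spread over all 5 chromosomes at 17.4 to 20.8 per Mb. They made up 38.4% of the reproduced sites on chromosome 1, 36.3% on chromosome 2, 36.2% on chromosome 3, 34.7% on chromosome 4 (31.7 to 37.8) and 36.4% on chromosome 5, near the overall 36.6%. On each chromosome the members had fewer boxes with at most 1 mismatch, a lower promoter share and a higher share of preferred box pairs than shared sites. For the pairs the values were 23.1% and 16.1% on chromosome 1, 25.4% and 20.6% on 2, 19.4% and 12.8% on 3, 27.9% and 18% on 4 and 23% and 13.3% on 5. In the 20 gene-poor bins of 1 Mb members numbered 10.9 per Mb, against 21.3 elsewhere. These bins held 9.36% of members and 8.11% of shared sites, a difference of 1.25 points whose interval contained 0 (-0.174 to 2.74). Another reproduced SEP3-AG site lay within 1000 bp of 218 members (9.36%), and 142 (6.10%) shared their peak region with a further summit.

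The 20 members with the highest mean fold enrichment lay at genes of many functions. The highest, at the start of AT3G32150, a coding exon of a myosin heavy chain-like protein gene, had fold enrichments of 13.5, 14.3 and 17.2 in the 3 libraries. The site in an intron of STT3A, which encodes a catalytic subunit of the oligosaccharyltransferase of N-glycosylation, had 14.1, 14.6 and 15.5, and the nearest summit of another complex was 18276 bp away. The site 261 bp upstream of PEN3, a triterpene synthase gene, had 14.3, 12.2 and 14.2, with the nearest other summit at 24721 bp. These sites were chosen by their mean over the same 3 libraries and for lacking a call of another complex within 200 bp. High values in all 3 libraries and no nearby call are therefore not findings. A site in a coding exon of RPS6, an immune receptor gene of the TIR-NBS-LRR class, had 12.5, 12.5 and 14.2. One upstream of AAE3, which encodes an oxalyl-CoA synthetase, had 12.8, 10.7 and 13.1, and one upstream of the sucrose transporter gene SUC7 had 11, 11.1 and 14.2. The other 13 sites, nearest to AT5G42940, AT3G24230, CKL6, AT5G41900, scpl48, AT4G34950, AT1G47540, AT1G22490, AT1G57720, AT3G17090, AT2G16860, AT1G72820 and AT1G52900, had replicate 1 fold enrichments from 11.4 to 14.7. The only gene of the 20 annotated as a MADS gene was AGL94, with 12.4, 12.5 and 13.4 in an untranslated exon.

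Of these 20 sites, 10 had a preferred pair of matrix matches, 9 a box with at most 1 mismatch within 50 bp and 3 a box without mismatch. The sequences of STT3A, RPS6, AAE3, PEN3, scpl48, AT1G57720 and AT3G17090 printed above are 7 of the 10 pairs. In these 7 the summit lay inside the run. At AT5G41900, which is not printed, the summit lay outside a pair at 47 bp. Introns held 5 of the sites, coding exons 4, promoters 3, untranslated exons 2 and other intergenic DNA 6.

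The reach of a protein-coding gene ran from 3000 bp before its start to 1000 bp after its end. A site was assigned to each gene whose reach came within 200 bp of the summit. By this rule 3602 of 27444 genes had a member (13.1%) and 5704 had a shared site (20.8%). Of the 3602 genes, 790 (21.9%) had a shared site too, and 2081 (57.8%, or 7.58% of all genes) had no summit of any SEP3Δtet-AG or SEP3 library. A pair of members or more was found at 256 genes, and 13 genes had 3, among them AG itself. At no gene lay 229 members.

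Developmental gene lists were searched to see which genes of the floral network carried members. Of 243 listed genes 43 had a member (17.7%, against 13.1% of all genes) and 101 had a shared site (41.6%, against 20.8%). Only 10 of the 43 had no summit of another complex. Genes whose product name includes "transcription factor" had a member in 50 of 374 cases (13.4%), at the background, and a shared site in 106 (28.3%). Members were most frequent in the MADS lists, with 6 of 18 floral organ and ovule genes (33.3%) and 8 of 21 flowering-time and other MIKC-type genes (38.1%). They were found at 4 of 28 floral meristem and boundary genes, 3 of 14 carpel and fruit genes, 1 of 18 stamen and anther genes and 4 of 16 organ polarity genes. The remaining lists had 2 of 8 CINCINNATA-type TCP genes, 2 of 19 floral repressor, AP2 and FT/TFL1 family genes, 1 of 16 gibberellin metabolism genes, 13 of 70 auxin genes and 0 of 16 SBP-box genes. In each list the genes with a shared site were at least as many as those with a member. In the MADS lists 55.6% of floral organ and ovule genes and 57.1% of the other MIKC-type genes had a shared site. In the latter list the same member counts for both MAF3 and MAF4. The reach grows with the length of a gene, and the part of gene length in these shares was not tested.

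Among the floral organ identity genes, AG held 3 members next to 3 shared sites and 13 summits of other complexes. The strongest lay 151 bp before its start, with fold enrichments of 11.3, 10.6 and 12, and carried the pair at 47 bp shown above. One lay in an untranslated exon (6.27, 5.46 and 6.35), and one in the intron region 2549 bp downstream of the start (6.84, 6.05 and 6.66), where regulatory sequences of AG are known to lie. The last had a pair of matrix matches at 46 bp, each of which departs from the CArG box at 4 positions. It had no box with at most 1 mismatch within 50 bp. AP1, which specifies floral meristems and the outer organs, had a member in an intron 572 bp after its start, with a box without mismatch and fold enrichments of 6.01, 4.30 and 5.46. Its nearest SEP3 summit was 402 bp away. CAL, the close paralogue of AP1, had a member in an untranslated exon with 7.30, 5.36 and 7.82, a preferred pair of matches and no summit of another complex at the gene. The members at FUL, a regulator of fruit valves (3.87, 3.57 and 3.84), and at AGL79 (5.5, 3.49 and 6.01) lay within 13 bp of the gene start. SEP1, another SEPALLATA gene, had one 1605 bp before its start (6.19, 4.78 and 6.50).

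FLC, the central repressor of flowering, and each of its 5 relatives MAF1 to MAF5 had a member within reach. At FLC it lay 938 bp before the start (6.40, 3.83 and 7.02) with no box with at most 1 mismatch within 50 bp and no preferred pair. MAF2 had the strongest, in an untranslated exon, with 9.44, 8.41 and 12.1 and no summit of another complex at the gene. MAF1 had 6.59, 6.10 and 8.28, and MAF5 6.11, 4.56 and 6.85. The MAF5 site lay in a promoter 6284 bp after the start of MAF5, past the end of this gene at 5116 bp. MAF3 had a pair of members (3.37, 3.01 and 4.31 for the first). The other one (5.11, 3.35 and 5.59) was also within reach of MAF4, since MAF2 to MAF5 are neighbours on chromosome 5. It was the only member of MAF4. Outside this family AGL21, a MADS gene of lateral root growth, had one 2582 bp upstream (8.96, 6.72 and 8.20) with a pair at 46 bp.

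At fruit and ovule genes, ALC, which encodes a bHLH protein of fruit opening, had a promoter member at 159 bp before the start with 9.84, 7.63 and 8.0 and no summit of another complex. HEC1, a gene of style and transmitting tract growth, had one with 3.36, 2.46 and 3.89, only 317 bp from a SEP3 summit. ETT, an auxin response factor of gynoecium patterning, had one with a box without mismatch (6.45, 5.13 and 8.71). SPL, also known as SPOROCYTELESS and needed for sporogenesis, was the only stamen gene with one (4.39, 3.41 and 5.0).

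Among polarity and meristem genes, the member at KAN2 lay 6008 bp after the start (7.28, 5.58 and 7.96) and held a pair at 46 bp. It was intergenic, past the end of KAN2 at 5130 bp. Those at KAN3 (6.22, 4.31 and 6.11) and REV (4.45, 3.06 and 4.41), which act on opposite sides of lateral organs, had no summit of another complex at the gene. The KAN3 site was also intergenic, 3378 bp after the start and past the gene's end at 2995 bp. AS1, a repressor of KNOX genes in leaves, had a weak intronic member (3.91, 3.02 and 3.48) and a strong one 2621 bp upstream (10.1, 7.78 and 9.83). The KNOX gene KNAT2 had one in an intron with a box without mismatch (5.68, 3.68 and 5.58). The boundary genes BOP1 and BOP2 had one each in an untranslated exon, with 4.56, 3.88 and 4.65 and with 3.23, 3.45 and 3.84. The BOP1 site lay 2846 bp after the start, past the end of BOP1 at 2681 bp. TCP24, a restrainer of leaf margin growth, had one 80 bp after its start with 9.20, 8.63 and 10.6.

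The auxin list held the strongest member at a listed gene. At ARF7, an activating auxin response factor, the values were 11.8, 11.1 and 12.5, in an untranslated exon 238 bp after the start. ARF1 had one 2865 bp upstream with 9.95, 9.39 and 9.75 and a pair at 46 bp, and ARF13 an intronic one with 7.43, 6.15 and 7.29 and a preferred pair of boxes. The repressor genes IAA17 (8.24, 7.62 and 9.13) and IAA34 (5.53, 4.53 and 7.40) had intronic members and no summit of another complex at the gene. YUC6, a gene of auxin synthesis, likewise had none (5.11, 2.92 and 7.01). GA2OX7, which inactivates gibberellin precursors, had an intronic member with a pair at 47 bp (6.71, 5.37 and 8.47). The listed genes not described so far, AGL14, AIL6, TCP2, TOE1, SMZ, IAA9, IAA13, IAA14, IAA20, ARF4 and YUC10, had members with replicate 1 fold enrichments from 3.28 at YUC10 to 7.69 at SMZ. At the listed genes the replicate 2 value was mostly the lowest of the 3 libraries, as it was in the medians over all members.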

How the data were processed

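Sequential DNA affinity purification sequencing of SEP3-AG (3 libraries), SEP3Δtet-AG (2) and SEP3 (4) was analysed from the peak list of each library. The authors demultiplexed reads with bcl2fastq 2.17 per the labels, aligned them to TAIR10 with Bowtie2, kept unique alignments with at most 2 mismatches, removed duplicates with SAMtools and called peaks per library with MACS2 against a common input (genome size 120000000, q threshold 0.0001, summits called). Deposited values were fold enrichment over input (a ratio), -log10 of p and q values, and an integer score, which was not used. The lists give no depth, and the read numbers reported in the paper were not used. Precision is therefore given only as counting error over sites, and nothing in the labels says whether the libraries came from separate preparations. The consensus peaks of the study were not used here.

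Members and gene lists were chosen with earlier results of these data known. Summits were compared by position, and box, pair and place shares were computed with Python 3.11.15, NumPy 2.4.6, pandas 2.3.3 and matplotlib 3.10.9 on the RefSeq TAIR10.1 genome and annotation, and tested on simulated data. Shares carry 95% Wilson intervals and differences Newcombe intervals. Genes named were those nearest to the 20 sites of highest mean fold enrichment, every listed gene with a member in reach, and sites on either side of the 200 bp limit. Alternatives changed the distance, the list supplying positions, the q threshold, the list length, the box and promoter definitions and the libraries used.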

Additional observations from a re-analysis of the deposited data

How the results depend on the processing

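A site joins the members when other lists lack a call. Leaving out each library in turn gave 2328 to 3450 members, with 3232 without SEP3-AG replicate 2 and the highest number without SEP3 replicate 4. When each SEP3-AG list was limited to as many top summits as the shorter SEP3Δtet-AG list holds, 368 members remained. With these shortened SEP3-AG lists, the other lists being kept whole, the difference from shared sites was -6.84 points for boxes without mismatch, 15.4 for preferred box pairs and 25.2 for preferred matrix pairs. The box difference was -6.78 points within 100 bp and -13.9 with 1 mismatch allowed, and -5.77 to -5.29 when libraries were left out. The promoter difference was -5.34 points with promoters of 500 bp, and -8.61 to -4.96 when libraries were left out, the last without SEP3 replicate 4. The box pair difference turned to -0.660 and -0.913 points at distances 5 bp shorter and longer and to -0.344 over all windows, each with an interval that contained 0, and was 5.90 to 8.04 when libraries were left out. The matrix pair difference, whose alternatives were chosen after seeing the data, turned to -6.49 and -6.20 at these shifted distances and was 3.18 over all windows, 16.9 within the height classes and 10.2 to 14.5 when libraries were left out. The causes of these changes were not tested. All other alternatives kept the direction of these results. No paired analysis was possible because the results come from no test.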
